A study of Mus musculus with 16 samples.

Results

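The nuclear-encoded genes of oxidative phosphorylation (OXPHOS) were taken from the deposited table of all genes by symbol: Sdha, Sdhb, Sdhc, Sdhd and Cyc1, and every symbol that starts with Ndufa, Ndufb, Ndufc, Ndufs, Ndufv, Uqcr, Cox4 to Cox8 or Atp5. Of the 25905 genes listed, 91 met this rule. Of them, 84 were taken as subunits of complexes I to V by name, 4 encode complex I assembly factors of the Ndufaf group, and 3 share a prefix but encode no subunit. The study sequenced retinal RNA of mice from a spaceflight group and of a ground control group kept on Earth, with 8 mice in each group. All 16 mice were male wild type C57BL/6, labelled 10 weeks old, and the retina was taken from the right eye. For each stranded library, 100 ng of total RNA went into a kit that depletes ribosomal RNA.

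Complexes I to IV pass electrons from NADH and succinate to oxygen, and complexes I, III and IV pump protons out of the mitochondrial matrix. Complex V, the ATP synthase, uses the proton gradient to make ATP. Photoreceptors have a high demand for ATP and hold densely packed mitochondria in their inner segments.

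The columns of counts per library carry codes that match no label, so the spaceflight and ground control mice could not be compared here. The value used is the authors' mean normalized count of each gene over all 16 libraries. Spread over mice, depth per library and any difference between the groups are not analysed here, so no order of genes given below was set against the spread between mice. Where a level is per kilobase of transcript or of coding sequence this is said; other levels are mean normalized counts, to which long transcripts add more. More cells of a type and more RNA per cell cannot be told apart in these bulk retinas.

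Summed over the table, the mean normalized counts came to 6995810, of which the 84 subunits held 0.890%. Of the sum over all 91 genes, complex V held 32.4%, complex I 28.1%, complex IV 21.2%, complex III 9.23% and complex II 6.53%, and the 7 genes of no complex held 2.57%. These are shares of counts, to which long transcripts add more. As shares of the summed mean normalized counts per kilobase, complex I (31.2%) and complex IV (31.2%) were level with each other, ahead of complex V (24.2%), complex III (9.83%) and complex II (2.60%). By counts, with no division by length, a small number of genes carried much of some complexes. Atp5b and Atp5a1, the catalytic beta and the alpha subunit of the ATP synthase, together held 61.2% of the complex V counts. Sdha held 67.9% of those of complex II. Atp5b (1916 bases) and Atp5a1 (2471) are long beside the complex V median of 809, as is Sdha (2900) beside the complex II median of 2065.5.

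The median mean normalized count per kilobase was 612 over all 84 subunits, 705 over the 77 subunits with 1 counted transcript and 20.2 over 16702 coding genes counted as 1 transcript. Only 10275 (61.5%) of these coding genes had a mean normalized count of at least 10. Their median and percentiles thus include many genes with few or no counts in the retina. Of the 84 subunits, 64 lay above the 90th percentile of those coding genes per kilobase and 22 by mean normalized count. With no division by length, the median mean normalized count was 484 over all 84 subunits and 499 over the 77 with 1 counted transcript. It was 54.9 over the coding genes, whose transcripts are longer (a median of 2429 bases against 729 over the 84 subunits). By complex, the median mean normalized count per kilobase was 359 for complex II, 550.4 for complex I, 726 for complex III, 893 for complex IV and 966 for complex V. Complexes II and I were the 2 lowest under 6 of the 7 ways of taking the level that were computed, and the order of complexes III, IV and V changed among them. With the mean on the log2 scale, complex IV, which holds most of the low tissue-specific isoforms described below, was the lowest at 152. The median per kilobase of complex IV was 1444 with a minimum mean normalized count of 10 and 532 with every gene of the rule.

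**Figure D1:**
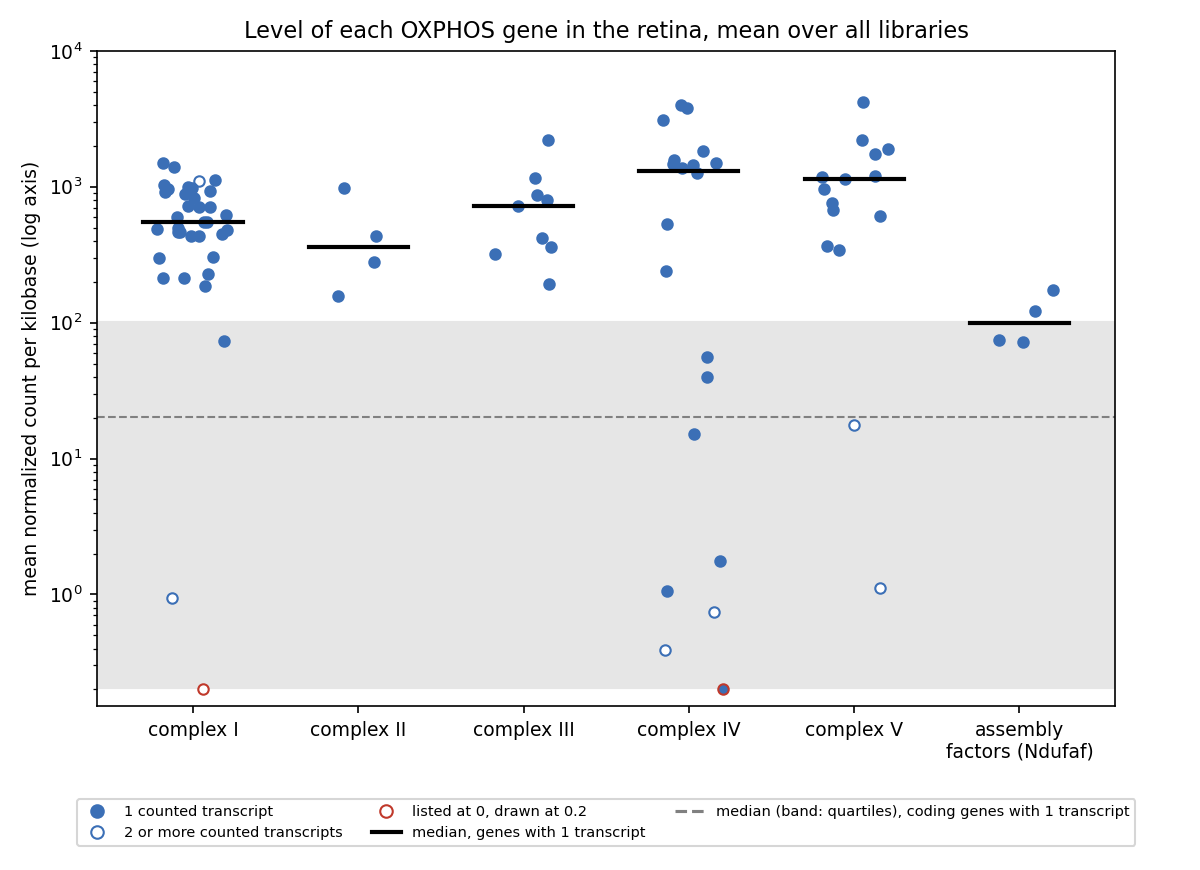
Mean normalized count per kilobase of transcript (log axis) of each subunit by complex and of the 4 Ndufaf assembly factors; each point is 1 gene, as the authors' mean over all libraries. Black bars are medians of genes with 1 counted transcript (554 for complex I, 359 for II, 726 for III, 1312 for IV and 1136 for V), and the dashed line and band give the median (20.2) and quartiles of coding genes with 1 counted transcript. Most subunits lie above the band; of the filled points of subunits below 100, 6 are in complex IV and 1 in complex I.

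Values differed with the number of transcripts a gene was counted as. Reads were counted for 31616 transcripts that name a gene, while the table of all genes has 1 line per symbol. Among coding genes, the 16702 with 1 counted transcript had a median mean normalized count of 54.9, and the 3153 with 2 or more had a median of 1.55. Of the OXPHOS genes, 84 had 1 counted transcript and 81 of these had a mean normalized count of at least 10, against 2 of the 7 with several. The 7 were Ndufv3 with a mean normalized count of 539, Atp5c1 with 20.6, Cox7a2l with 0.803, Atp5g1 with 0.660, Ndufs6 with 0.536, Cox6b2 with 0.217 and Ndufs1, which was counted as 4 transcripts and is listed at 0. Ndufs1 encodes the largest core subunit of complex I and Atp5c1 the gamma subunit that forms the rotor shaft of the ATP synthase. How reads in exons shared by several transcripts were counted, and how transcripts were joined to 1 line per gene, is not given in the sources used here, and their part in the low values was not tested. The values of these 7 genes are therefore uncertain, and median levels without them are given for the main setting where they differ.

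**Figure D2:**
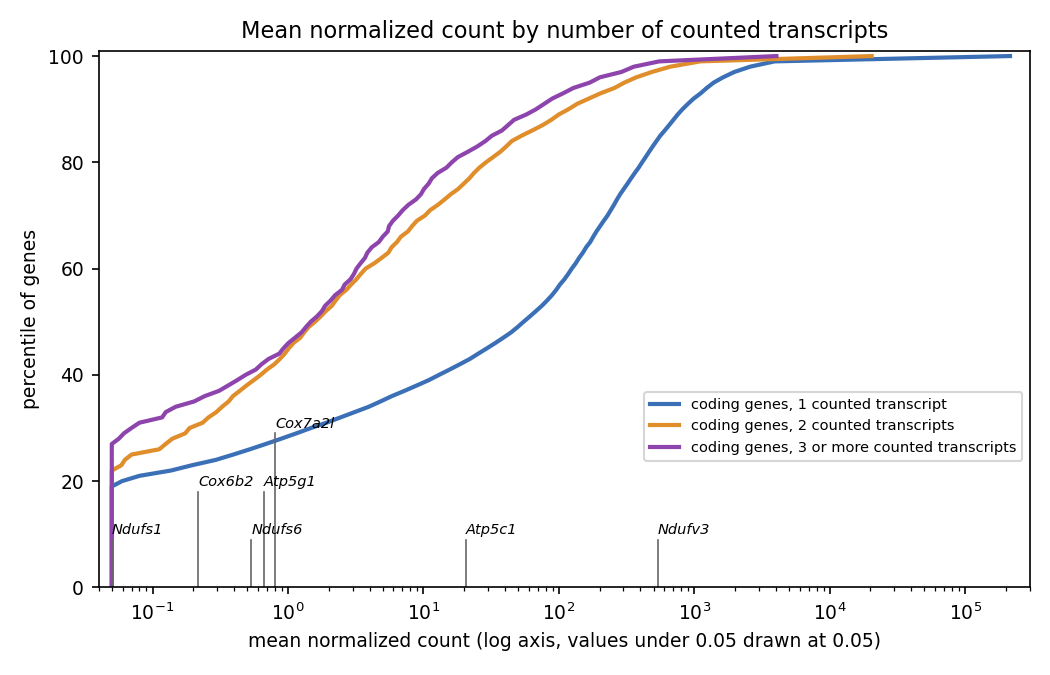
Percentile of coding genes against mean normalized count (log axis, values under 0.05 drawn at 0.05) for genes with 1, 2 and 3 or more counted transcripts. Vertical marks are the 7 OXPHOS genes with several counted transcripts; 5 of them lie below 1 and Ndufv3 lies at 539.

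Complex I, the NADH dehydrogenase, is the largest of the complexes. Its highest levels per kilobase were those of Ndufb9 (mean normalized count per kilobase 1504), Ndufa12 (1384) and Ndufb8 (1128), which encode accessory subunits around the catalytic core. The lowest were Ndufs6 (0.944) and Ndufs1 (0), both counted as several transcripts. Among the 33 subunits with 1 counted transcript the range was 20.6-fold, and the lowest was Ndufab1 (73.2 per kilobase), the acyl carrier protein that also serves mitochondrial fatty acid synthesis. The reference transcript of Ndufab1 is long for its coding sequence: per kilobase of coding sequence it reached 544, the lowest was Ndufa9 (272) and the range was 7.91-fold. On that scale the highest were Ndufb3 (2156), Ndufb9 (1972) and Ndufa1 (1971), while Ndufa12 had 1752 and Ndufb8 1375. Levels below are again per kilobase of transcript. The 6 core subunits with 1 counted transcript, which bind the flavin and the iron-sulfur clusters or line the quinone site, had a median of 518 per kilobase and the 27 accessory subunits 601. Their ranges overlapped, from 226 to 1030 for the core and from 73.2 to 1504 for the accessory subunits. By position in the enzyme, the median per kilobase was 547 for the NADH module (7 genes with 1 counted transcript), 476 for the quinone module (6 genes) and 663 for the remaining subunits (20 genes), most of which sit in or near the membrane arm.

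Complex II, succinate dehydrogenase, belongs to the respiratory chain and the Krebs cycle and has no mitochondrially encoded subunit. Its levels fell in the order of Sdha (mean normalized count per kilobase 978), the flavoprotein that oxidizes succinate, Sdhb (437), the iron-sulfur subunit, and the membrane anchors Sdhd (281) and Sdhc (156). Per kilobase, Sdha was 2.24-fold above Sdhb and 6.25-fold above Sdhc. The reference transcript of Sdhc is long for its coding sequence, and per kilobase of coding sequence Sdhc reached 978, above Sdhd (725) and Sdhb (589) and below Sdha (1424). The first place of Sdha thus held on both scales, while the order of the other genes did not.

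Complex III, the cytochrome bc1 complex, passes electrons from ubiquinol to cytochrome c. Its highest levels per kilobase were those of the small subunits Uqcrb (2191), Uqcrh (1154) and Uqcr10 (864). The lowest were those of the redox subunits Cyc1 (320), which carries the heme of cytochrome c1, and Uqcrfs1 (193), the Rieske iron-sulfur protein. Uqcrq (360 per kilobase of transcript) reached 2227 per kilobase of coding sequence, above Uqcr10 (1953) and below Uqcrb (3520) and Uqcrh (2364). On that scale Cyc1 (498) and Uqcrfs1 (319) were again the lowest. Uqcrb was 11.4-fold above Uqcrfs1 per kilobase of transcript. All 9 subunits were counted as 1 transcript, and all lay above the upper quartile of coding genes.

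Complex IV, cytochrome c oxidase, reduces oxygen to water. The highest levels per kilobase were those of Cox8a (3965), Cox6c (3809) and Cox6a1 (3112), small subunits bound to the mitochondrially encoded core, and the lowest those of Cox6b2 (0.392) and Cox8c (0). Its 18 subunits with 1 counted transcript had a median of 1312 per kilobase. They fell apart into 12 genes above the upper quartile of coding genes and 6 genes below it. Those 6 (Cox7a1, Cox8b, Ndufa4l2, Cox6a2, Cox7b2 and Cox8c) are all members of the isoform families described below. So are the 12 genes above it, except Cox5a, Cox5b, Cox6c and Cox7c.

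Several positions of complexes IV and V can be filled by products of paralogous genes, some of them known as forms of muscle, lung or testis. In each of the 8 families 1 gene held most of the summed mean normalized count per kilobase. The shares in the families of Cox6b2, Cox7a2l and Atp5g1, each counted as 2 transcripts, rest on values that are uncertain. Cox4i1, the widely expressed form of subunit 4, held 86.2% and Cox4i2, the form known from lung and from regulation by oxygen, 13.8% (239.9 per kilobase). Cox4i2 was the most abundant minor isoform of complex IV. Cox6a1 held 99.9% (3112 per kilobase) and the heart and muscle form Cox6a2 0.0565% (1.76). Cox7a2 held 96.3% (1444 per kilobase), the heart and muscle form Cox7a1 3.70% (55.5) and Cox7a2l, a factor of supercomplex assembly that its name places among the 84 subunits and that was counted as 2 transcripts, 0.0497% (0.746). These muscle forms are known to be abundant in contractile tissue. Cox8a held 99.0%, the heart and muscle form Cox8b 0.988% (39.6 per kilobase), and Cox8c is listed at 0. Cox6b1 held 99.97% (1255 per kilobase) and the testis form Cox6b2, counted as 2 transcripts, 0.0312% (0.392). Cox7b held 99.8% (532 per kilobase) and Cox7b2 0.199% (1.06). Ndufa4, once assigned to complex I and now known as a subunit of complex IV, held 99.0% (1475 per kilobase) and its paralog Ndufa4l2, known as a gene induced by low oxygen, 1.02% (15.1).

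**Figure D3:**
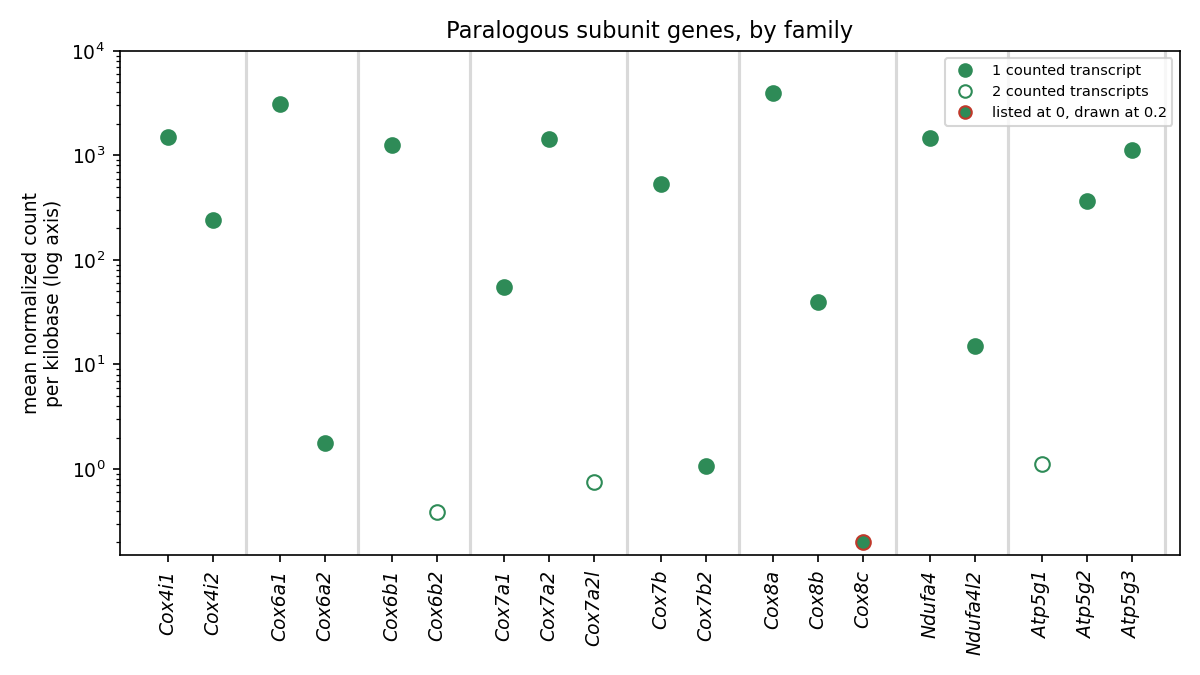
Mean normalized count per kilobase of transcript (log axis) of the 19 genes of 8 paralog families, separated by vertical lines; each point is 1 gene, as the authors' mean over all libraries. The highest gene holds 75.5% of the Atp5g family (Atp5g3), 86.2% of the Cox4 family (Cox4i1) and at least 96.3% of each other family.

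Markers of other tissues were set beside these minor isoforms. All 10 skeletal muscle markers had a mean normalized count under 10 (sum 35.3, the highest Acta1 at 8.94, and Tnnt3, counted as 8 transcripts, listed at 0). All 6 heart muscle markers were under 10 (sum 18.7, the highest Myh7 at 8.84, with Myh6 and Tnnt2, counted as several transcripts, at 0), as were all 6 testis markers (sum 0.387, the highest Tnp1 at 0.325, with Prm1, Odf1, Ldhc and, counted as 2 transcripts, Akap4 at 0). Vascular mural cells, which are contractile cells of the retinal vessels, were represented by a sum of 402 over 6 markers, with Rgs5 the highest at 282 and Myh11 and Pdgfrb, both counted as 2 transcripts, at 0. The part of any of these cells in the level of Cox4i2, Cox7a1, Cox8b or Ndufa4l2 was not tested.

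Complex V includes Atp5b, which had the highest mean normalized count of all 91 genes (8007) and the highest per kilobase of transcript (4179). Per kilobase of coding sequence Atp5b (5046) lay below Cox8a (10536), Cox6c (8403), Cox6a1 (5289) and Cox7c (5271) of complex IV. Within complex V it was followed by Atp5h (2214 per kilobase of transcript), a subunit of the peripheral stalk, and Atp5a1 (1882). Per kilobase of coding sequence Atp5b was followed there by Atp5k (3020), Atp5h (2864) and Atp5a1 (2804). The lowest per kilobase of transcript were Atp5c1 (17.7) and Atp5g1 (1.11), both counted as 2 transcripts. In the F1 head, which holds the catalytic sites, Atp5b stood 2.22-fold above Atp5a1, 3.52-fold above Atp5d (delta) and 6.93-fold above Atp5e (epsilon) per kilobase of transcript, and 1.80-fold, 2.30-fold and 3.10-fold per kilobase of coding sequence. The assembled enzyme holds several alpha and beta subunits and a single gamma, delta and epsilon subunit. The 4 F1 genes with 1 counted transcript had a median of 1534 per kilobase, and the 7 genes of the stalk and membrane part had a median of 966. The c ring, the rotor in the membrane, is built from identical proteins encoded by 3 genes whose products differ in the targeting sequence. Atp5g3 held 75.5% (1136 per kilobase), Atp5g2 24.4% (368) and Atp5g1, counted as 2 transcripts, 0.0736%.

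The genes of no complex are given per kilobase of transcript, where all 7 lay below the subunit median of 612. The assembly factors of complex I, which help to build the enzyme and are absent from the finished one, had a median of 98.7 per kilobase, from Ndufaf2 (173) and Ndufaf3 (122) to Ndufaf4 (75.1) and Ndufaf1 (71.9). Per kilobase of coding sequence Ndufaf4 was the highest of them (525), above Ndufaf3 (328), Ndufaf2 (233) and Ndufaf1 (105). Of the genes that share a prefix, Cox4nb (135 per kilobase), now named Emc8, belongs to a membrane protein complex of the endoplasmic reticulum; its transcript is long, and per kilobase of coding sequence it reached 1077, beside the complex I median of 1078. Atp5sl (87.1 per kilobase), now Dmac2, and Atp5s (59.7 per kilobase), now Dmac2l, are related genes that do not encode ATP synthase subunits. Among the 77 subunits with 1 counted transcript, transcript length ran from 315 to 3479 bases. Across these genes, which are not independent replicates, Spearman's rho with length was 0.271 for the mean normalized count and -0.252 for the value per kilobase.

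Copies of OXPHOS genes elsewhere in the genome can share reads with them. Of the 91 genes, 36 had at least 1 stretch of 75 bases, the read length, that occurs without a mismatch in a reference transcript of another gene, 24 of them in a transcript annotated as a pseudogene. In 17 genes such stretches made up at least 20% of the transcript, 8 of them in complex I, 5 in complex V, 2 each in complexes III and IV and 0 in complex II. The share was highest for Atp5g2 (86.9%, with 2 pseudogenes), Atp5l (76.0%, with 10 genes, 9 of them annotated as pseudogenes) and Cox7c (50.4%, with 2 pseudogenes). It was 46.3% for Ndufa12, 40.3% for Atp5h and 29.1% for Uqcrb, which are among the highest of their complexes per kilobase. Some partners are neighbouring genes whose annotated transcripts overlap or run into the OXPHOS gene, such as Smim27 for Ndufb6 (31.3%), Kbtbd4 for Ndufs3 (28.2% together with 1 pseudogene) and Wdr77 for Atp5f1 (27.9% together with 2 other genes, 1 of them a pseudogene). Whether counting used strand, and how reads with several positions were treated, is not given in the sources used here, so the values of these genes are uncertain. Atp5b, Sdha, Cox8a and Cox4i1 had no such stretch.

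**Figure D4:**
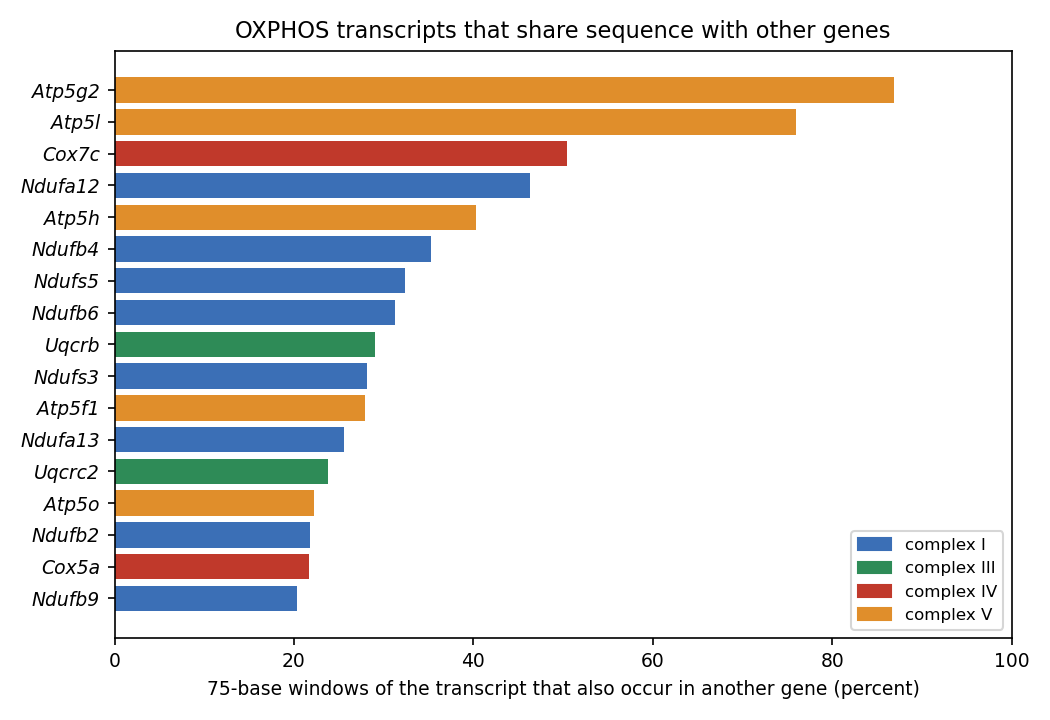
Percent of all 75-base windows of a transcript that also occur, without a mismatch on either strand, in a reference transcript of another gene, for the 17 OXPHOS genes with at least 20%; colours give the complex. Atp5g2 (86.9%), Atp5l (76.0%) and Cox7c (50.4%) lie above 50%, and no gene of complex II is among them.

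Nuclear genes for mitochondria are known targets of the transcription factors NRF1, GABPA (of the ETS family) and YY1, and CRX is a regulator of photoreceptor genes. RefSeq promoter windows, 250 bases before to 50 bases after a gene's start in build GRCm38.p6, were matched for 74 of the 91 genes. In 67 of the 74, bases from the side after the start were found in a GENCODE transcript of the gene, so the start is less certain for the other 7. The windows were searched on both strands for GCGCATGC (NRF1), CCGGAAG (ETS), AAGATGGC (YY1) and TAATCC (CRX). The upstream parts for Cox6a1, at chr5:115348959-115349208 on the minus strand, and Atp5l, at chr9:44920743-44920992 on the minus strand, are shown because each holds the NRF1 and the ETS letters. Sequences are from RefSeq and read 5′ to 3′ on the strand of the gene. Capitals mark the matched letters, on either strand; where the NRF1 letters and their reverse complement overlap, the run of capitals covers both.

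Cox6a1: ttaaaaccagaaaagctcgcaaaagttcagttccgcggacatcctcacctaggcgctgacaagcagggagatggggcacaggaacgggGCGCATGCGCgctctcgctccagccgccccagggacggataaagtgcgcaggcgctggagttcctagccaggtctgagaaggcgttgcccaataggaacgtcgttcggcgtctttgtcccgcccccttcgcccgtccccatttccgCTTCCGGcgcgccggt

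Atp5l: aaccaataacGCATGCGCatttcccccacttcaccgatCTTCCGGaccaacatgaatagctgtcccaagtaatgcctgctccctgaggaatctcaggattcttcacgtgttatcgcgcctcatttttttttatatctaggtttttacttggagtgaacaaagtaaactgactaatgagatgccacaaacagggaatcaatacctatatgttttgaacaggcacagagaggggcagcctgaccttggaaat

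The NRF1 letters were in the windows of 11 of 74 OXPHOS genes (14.9%, exact binomial 95% interval 7.66 to 25.0) and of 3.94% of 17492 protein-coding genes. The ETS letters were in 17 of 74 (23.0%, interval 14.0 to 34.2) against 12.9%. In the 250 bases before the start alone, the ETS letters were in 17.6% (interval 9.70 to 28.2), which encloses the 10.2% of protein-coding genes, and the NRF1 letters in 12.2% (interval 5.71 to 21.8) against 3.32%. In the whole window, the CRX letters were in 6 of 74 (8.11%, interval 3.03 to 16.8) against 7.56%. The genes with the NRF1 and the ETS letters were Sdhb, Uqcr11, Cox6a1, Atp5k and Atp5l. At least 1 of the NRF1, ETS and YY1 runs of letters was in 33 of 74 windows (44.6%), against 18.7% of the protein-coding genes. Taking the window with the highest GC content of each gene, the median GC content was 58.8% for the OXPHOS genes and 57.3% for protein-coding genes. No p-value was computed for these shares, the intervals treat genes as independent although they are not replicates, a match is a run of letters and not a bound site, and a window without one says nothing about the factor.

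The YY1 letters were in 11 of 74 windows (14.9%, interval 7.66 to 25.0), against 3.57% of protein-coding genes, and lay mostly on the transcribed side of the start. In the 250 bases before the start alone they were in 2 of 74 (2.70%, interval 0.329 to 9.42), against 1.77% of protein-coding genes. They were in 7 of 32 windows of complex I and 3 of 14 of complex V, and in 0 of 14 of complex IV, 0 of 5 of complex III and 0 of 3 of complex II. The letters include ATG, the start codon. In 9 of the 11 genes the ATG of the match is itself a start codon in the GENCODE vM21 annotation of the same build, against 27.4% of the 624 protein-coding genes with a match. Among genes with a match on the strand of the gene, which alone can hold the start codon, it was 9 of 10 against 171 of 414 (41.3%). Stretches of 30 bases around the match are given for Ndufa9 (chr6:126849097-126849126, minus strand), Ndufs4 (chr13:114388045-114388074, minus strand), Ndufs7 (chr10:80249462-80249491, plus strand) and Atp5j2 (chr5:145191500-145191529, minus strand), with the YY1 letters in capitals, to show how the match runs into the coding sequence.

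Ndufa9: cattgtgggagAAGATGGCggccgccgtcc

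Ndufs4: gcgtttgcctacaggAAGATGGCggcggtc

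Ndufs7: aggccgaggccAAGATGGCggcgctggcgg

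Atp5j2: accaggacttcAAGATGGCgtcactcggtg

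Levels of genes with and without the letters were set side by side. Among subunits with 1 counted transcript, the median mean normalized count per kilobase was 719 in 10 genes with the NRF1 letters and 716 in 52 without. It was 726 in 16 genes with the ETS letters and 708 in 46 without, and 674 in 9 genes with the YY1 letters and 726 in 53 without. For the CRX letters it was 580.4 in 4 genes with them and 719 in 58 without. The ranges of the genes with and without each run of letters overlapped.

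**Figure D5:**
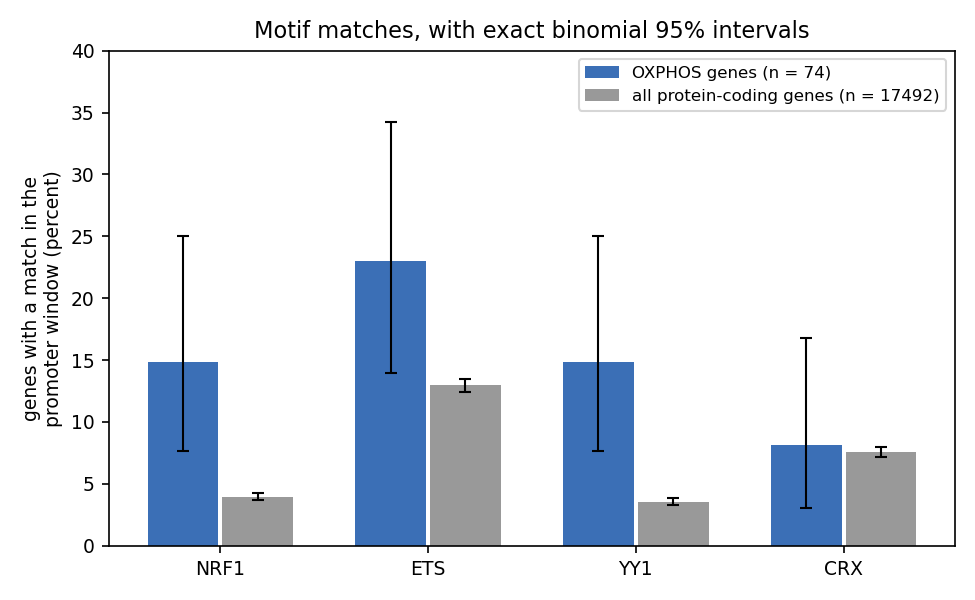
Percent of genes whose RefSeq promoter window holds the named letters, for 74 OXPHOS genes and 17492 protein-coding genes; bars start at 0 and error bars are exact binomial 95% intervals, which cover counting error only. The intervals of the OXPHOS genes lie above the share of all protein-coding genes for NRF1, ETS and YY1, and enclose it for CRX; in the 250 bases before the start alone they enclose it for ETS and YY1 too.

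Other genes of the pathway were taken from fixed lists. None of the 13 mitochondrially encoded subunits has a line in the table, so the mitochondrial part of complexes I, III, IV and V is not analysed here. Of the mobile carriers and enzymes of ubiquinone synthesis, cytochrome c (Cycs) had 222 per kilobase and its testis form Cyct is listed at 0. With no division by length, Cycs had a mean normalized count of 694, above the median of 484 over the 84 subunits. Its place beside the subunits thus depends on the scale, and its level per kilobase of coding sequence is not reported here. The enzymes ran from Coq7 (267 per kilobase), Coq2 (162), Coq5 (141), Coq9 (92.5) and Coq6 (60.9) to Coq3 (33.4), Pdss1 (29.6), Coq4 (21.1) and Pdss2 (19.7, counted as 2 transcripts). All of these enzymes lay below the subunit median of 612 per kilobase. The 13 Krebs cycle genes, all with 1 counted transcript, had a median of 455 per kilobase, among them Mdh2 (841), Ogdh (744), Idh3b (741) and Idh3g (569.6). Of the alternative beta subunits of succinyl-CoA ligase, Sucla2, the ATP-forming type, had 290.3 per kilobase and Suclg2, the GTP-forming type, 11.9.

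Of the carriers that exchange ADP for ATP across the inner mitochondrial membrane, Slc25a5 had 2123 per kilobase, Slc25a4 1923 and Slc25a31, a form known from testis, 1.24. The pores of the outer membrane had 1701 (Vdac1), 613 (Vdac2) and 461 (Vdac3) per kilobase, beside the subunit median of 612. Of the uncoupling proteins, Ucp2 had a mean normalized count of 245, Ucp3 2.02 and Ucp1 0.346. Among 17 assembly and regulatory genes of complexes II to V, Atpif1, which encodes the inhibitor of the ATP synthase, had 1822 per kilobase and Cox17, a copper chaperone of complex IV, 812. Surf1 had 306, Cox11 139.6 and Sdhaf1 90.8, and the 14 with 1 counted transcript had a median of 85.4, near that of the Ndufaf factors. Of the 11 regulators the highest were Gabpb1 (147 per kilobase, counted as 2 transcripts), Ppargc1b (137), Gabpa (107), Yy1 (89.9) and Esrra (82.0). Ppargc1a, a coactivator of mitochondrial genes, counted as 2 transcripts, is listed at 0 and Nrf1, counted as 6 transcripts, had a mean normalized count of 1.78, which leaves the level of either uncertain.

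The retina was checked by its marker genes. All 10 rod markers had mean normalized counts above 10, with a sum of 475945. Markers of Muller glia summed to 26509 over 5 genes (highest Glul, 17455), of bipolar cells to 11034 over 6 (Prkca, 4239), of amacrine cells to 7159 over 6 (Gad1, 2415), of cones to 7020.3 over 8 (Opn1sw, 2800), of ganglion cells to 6683 over 7 (Nefl, 2999) and of horizontal cells to 644 over 3 (Calb1, 505). Of these markers, 5 had a mean normalized count under 10, Pde6c (0.0699) and Gngt2 (4.02) of cones, Rlbp1 (1.39) of Muller glia, Rbpms (5.53) of ganglion cells and Pcp2 (8.60) of bipolar cells, and all 5 were counted as 2 or 3 transcripts. Rod markers had the highest sum, and the OXPHOS levels are a mixture over all of these cells. Lens markers summed to 1820.1 over 6 genes (highest Cryaa, 898) and pigment epithelium markers to 1144 over 6 (Ttr, 540.04), with Best1 (2.72) and Rlbp1 (1.39) under 10. Crystallins and Rgr are known from cells of the retina as well, so the source of their counts cannot be told apart here. Other listed genes are neither, among them Bfsp1 (98.7) and Mip (49.1) of lens and Ttr, Rpe65 (121) and Lrat (93.0) of pigment epithelium. The source of their counts was not tested. The part of each cell type in the OXPHOS levels was not tested.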

How the data were processed

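Retinal RNA of 8 spaceflight and 8 ground control mice was sequenced by the authors. Per the paper's methods, 75-base reads were trimmed with Trimmomatic, mapped with TopHat2 to an NCBI mouse build older than GRCm38, counted with HTSeq and compared with DESeq2. The submitters' processing notes give DESeq2 1.22.2 and R 3.5.1. The signal used is the authors' deposited mean normalized count, counts divided by size factors and averaged over all libraries. The deposited tables also hold fold changes, standard errors, statistics and p-values of the authors' comparison, which were not used. The 32 columns of counts in 2 tables match no label and were not used, so the planned edgeR test of spaceflight against ground control was not run, and depth per library is not analysed here. Identifiers of the count table gave the counted transcripts of each gene, and its 5 lines that name no gene were left out.

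Members and lists were chosen with earlier results of these data known. RefSeq identifiers were joined to GENCODE vM21 (GRCm38) transcripts for length (the lower median where several matched), which was found for all 91 genes, and coding length is the sum of coding exons. Named with values were, for each complex and the assembly factors, the 3 highest and 2 lowest genes per kilobase (all 4 of complex II), all isoform families, all members that are no subunit, all mobile carriers and up to 5 genes of any other list. Other genes named were chosen after their values were seen, and some genes that the rule names are not reported here. Alternatives were coding length, a minimum mean normalized count of 10, a log2 mean with a pseudocount of 1, other sets of genes, raw counts and the 250 upstream bases. The motif search was tested on simulated windows with planted letters, and the division by length on simulated counts. No other step was tested on simulated data. The scripts ran in Python 3.11.15, reading tables with pandas 2.3.3 and numpy 2.4.6; intervals came from scipy 1.17.1 and plots from matplotlib 3.10.9.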

Additional observations from a re-analysis of the deposited data

How the results depend on the processing

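For shares of counts, medians and isoform shares, means over libraries with no spread, any change at the printed precision is given. As shares of the summed count, complexes I to V in turn held 28.8%, 6.71%, 9.47%, 21.8% and 33.2% among subunits only, 31.2%, 2.60%, 9.83%, 31.2% and 24.2% per kilobase of transcript, and 28.2%, 6.77%, 9.56%, 22.0% and 33.5% among subunits with 1 counted transcript. The median mean normalized count per kilobase of complexes I to V in turn was 1078, 852, 1922, 2211 and 1682 with coding length, and 396, 370.4, 610, 152 and 529 as a mean on the log2 scale. It was 1087, 852, 1922, 2267 and 1917 with coding length and 1 counted transcript. A minimum of 10 gave 578 for complex I, 1444 for IV and 1051 for V, every gene of the rule gave 493, 532 and 760.0, and 1 counted transcript gave 554, 1312 and 1136; complexes II and III did not move under these. Isoform shares with raw counts and with coding length were 86.5% and 86.7% for Cox4i1, 97.7% and 97.6% for Cox7a2, 99.9% and 99.9% for Cox7b, 99.4% and 99.4% for Cox8a, 98.5% and 98.5% for Ndufa4, and 75.1% and 75.7% for Atp5g3; those of Cox6a1 and Cox6b1 stayed at the printed precision. The YY1 letters were in 2.70% of OXPHOS windows in the 250 bases before the start, and the other motif shares stayed within the interval of the main value. Among subunits only, the NRF1 letters were in 14.7%, ETS in 23.5%, YY1 in 14.7% and CRX in 8.82%. In the 250 bases before the start the ETS interval (9.70 to 28.2) enclosed the 10.2% of protein-coding genes. The leading gene of each family was the same with raw counts and with coding length. Both settings reuse the same counts, and the setting with 1 counted transcript leaves out Cox6b2, Cox7a2l and Atp5g1. None of them can therefore show whether the low values of these genes are right. Settings with 1 counted transcript, and folds per kilobase of coding sequence, were chosen after seeing the data. The cause of each change was not tested. DESeq2, no filter and the replicate block for spaceflight against ground control were not run. No paired analysis was possible because the count columns match no label.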
